A study of Mus musculus with 4 samples.

Results

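Small structured RNAs are short, stably folded transcripts that act as RNA rather than as messages. Their listed N6-methyladenosine (m6A) bases were described in cells sorted from mouse cortex. The members were all listed bases whose gene name begins with Snord, Snora, Scarna, Rnu, Rn7s, Rny, Rmrp, Rpph, Terc or Vaultrc, or with Mir and a digit. This rule found 41 bases in 37 genes, of 10598 bases in 5526 named genes, and they were listed 76 times over 4 libraries. Box C/D snoRNAs had 18 bases in 18 genes, box H/ACA snoRNAs had 9 bases in 8 genes, and Scarna13, Rn7sk and Vaultrc5 had 1 base each. The same rule took in 3 miRNA precursors with 1 base each and 5 miRNA host transcripts with 8 bases. Those host transcripts are long non-coding RNAs from which miRNAs are cut, so they fit the name rule but not the label of a small RNA.

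There were 4 libraries, 2 labelled astrocyte (glia that clear neurotransmitter and support neurons) and 2 labelled microglia (the macrophages of the brain), called astrocyte 1 and 2 and microglia 1 and 2 by their replicate numbers. The genotype of all mice, of both cell types alike, was APOBEC1-YTH, which joins a cytidine deaminase with a domain that binds m6A. Tamoxifen was started at an age of 10 weeks and given at 20 mg/kg every 24 hours for 5 days, with collection 7 days after the last dose. Astrocytes were sorted by the surface antigen ACSA2 and microglia by CD11b. The sources used here name neither the promoter behind the transgene nor any pooling of animals. GLORI deaminates adenosine that lacks the methyl group, so that it is read as G, and the level of a base is the share of reads that still carry A.

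Box C/D and box H/ACA snoRNAs guide enzymes to ribosomal RNA, the first for methylation of the ribose and the second for the change of uridine to pseudouridine. Small Cajal body RNAs do the same for the RNAs of the spliceosome. Most mammalian snoRNAs are cut from introns of genes for translation factors, ribosomal proteins or long non-coding host RNAs, and are held in a folded particle by Snu13 and fibrillarin (box C/D) or dyskerin (box H/ACA). The GLORI reaction needs an accessible base, and an unmethylated adenosine held in a stable helix can also escape it and be read as A.

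Labels and marker genes disagreed in the replicate 2 libraries. Of 12 astrocyte marker genes, 10 had a site in astrocyte 1 and 8 in microglia 2, but 0 in astrocyte 2 and 0 in microglia 1. Of 12 microglia marker genes, 11 had a site in astrocyte 2 and 10 in microglia 1, but 2 in astrocyte 1 and 1 in microglia 2. Oligodendrocyte markers with a site numbered 5 of 6 in astrocyte 1 and 6 of 6 in microglia 2, and 0 in the other libraries. Any direction between the types therefore carries this limit, and values of the replicate 1 libraries alone are given for each base tested. The libraries listed 6343 to 12687 sites, 1066 to 4790 of them in named genes. Read depth is unknown, so no level has a counting interval. A base that is not listed may be unmethylated, under the calling limit or unread. The lowest listed level was 10.0% in each of astrocyte 1, astrocyte 2 and microglia 1, and 10.05% in microglia 2.

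The miRNA precursors are shown first because theirs are the sequences at hand, and because Mir219a-2 and Mir6240 stood far above most snoRNAs. The third, Mir12184, stood at 42.9%, within the range of the snoRNAs but above the 40% under which 50 of their 53 listings lay. All 3 hairpins matched a RefSeq entry (build GRCm38.p6). The listed bases are placed in mm39, another build, so which adenosine of a hairpin was listed was not determined. Capitals mark every occurrence of the listed 3-mer in the hairpin, whose middle A is the kind of base that was called, or, in a mature miRNA, the seed (bases 2 to 8).
Mir219a-2 hairpin: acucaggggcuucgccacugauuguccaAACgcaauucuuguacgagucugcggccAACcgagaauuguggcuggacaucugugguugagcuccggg
miR-219a-5p: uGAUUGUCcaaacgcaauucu
Mir6240 hairpin: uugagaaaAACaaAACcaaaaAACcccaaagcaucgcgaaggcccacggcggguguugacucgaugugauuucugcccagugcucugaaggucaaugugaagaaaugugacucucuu
miR-6240: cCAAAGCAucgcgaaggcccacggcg
Mir12184 hairpin: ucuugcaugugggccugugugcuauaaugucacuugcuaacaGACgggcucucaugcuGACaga
miR-12184-3p: aCAGACGGgcucucaugcuga
The Mir219a-2 hairpin holds AAC 2 times, 1 of them inside miR-219a-5p. Mir6240 holds AAC 3 times, none inside the mature miRNA. Mir12184 holds GAC 2 times, 1 of them whole inside miR-12184-3p, and the A of the other is the last base of that miRNA. The 3 seeds differ. In the minimum free energy fold of each hairpin, the A was unpaired at both AAC of Mir219a-2, at 1 of 3 in Mir6240 and at 1 of 2 GAC in Mir12184. A predicted fold is a description of the sequence and not a measurement.

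The snoRNAs were low: over 53 listings of 27 bases the median level was 17.2%, the lowest 10.0% and the highest 71.4%, and 50 of 53 lay under 40%. The 20 listings at miRNA loci (precursors and host transcripts) had a median of 91.9% and a lowest value of 42.9%, but 12 of them are 3 bases listed in every library. Counting each base once by its mean, the medians were 57.1% over the 11 bases at miRNA loci, 16.3% over the 27 snoRNA bases and 65.0% over other named genes. Over all other named genes, 11910 listings had a median of 66.7%, and 19.9% of them lay under 40%. No snoRNA listing stood at 100%, where 28.7% of the listings in other named genes stood. The snoRNA median was 13.3% and 17.2% in astrocyte 1 and 2, and 18.6% and 17.4% in microglia 1 and 2, against 66.7%, 80.0%, 100% and 60.0% in other named genes. The snoRNA median was thus the lower in each library. At miRNA loci the medians were 80.0% over 7 bases in astrocyte 1 and 100% over 3 in astrocyte 2. They were 93.5% over 3 in microglia 1 and 48.0% over 7 in microglia 2. The sets differ: astrocyte 2 and microglia 1 held only the 3 bases listed in every library. Astrocyte 1 and microglia 2 added bases listed once. No set can exceed the 100% of other named genes in microglia 1, so no order by label is read from these medians.

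**Figure D1:**
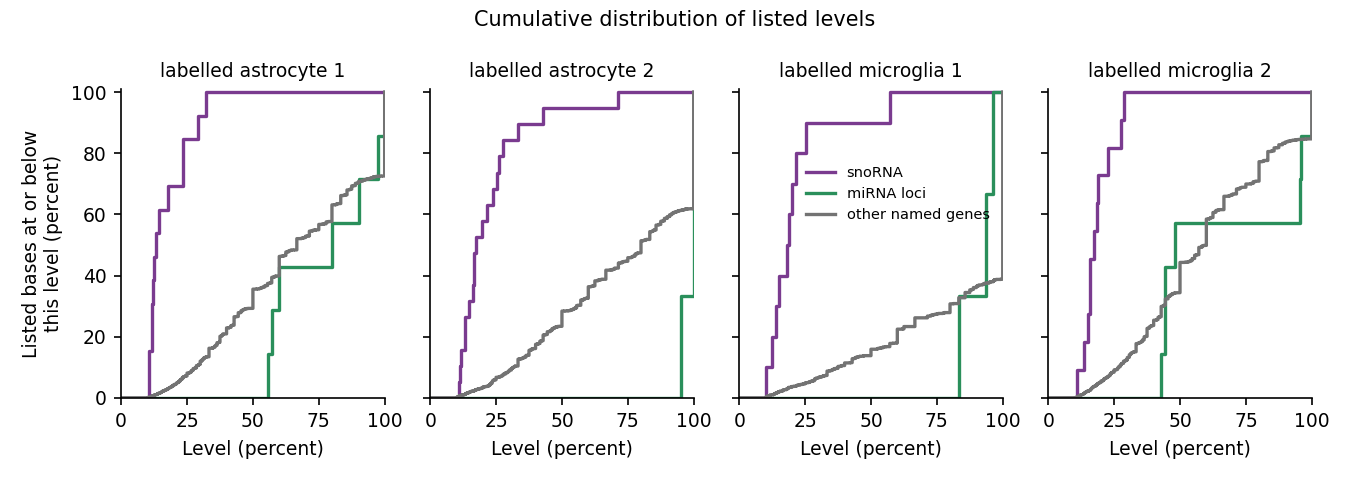
Cumulative share of listed bases (percent, vertical axis) at or below each level (percent of reads still carrying A, horizontal axis), in 1 panel per library, for snoRNAs (purple), miRNA loci (green) and other named genes (grey). The snoRNA curves climb mostly between 10% and 40%, while the grey curves climb across the whole range and end with a jump at 100%.

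How many small RNA bases each library listed followed the size of its table only in part. The smallest table, microglia 1, listed fewest, but the largest, astrocyte 1, did not list most. Astrocyte 1 listed 20, astrocyte 2 listed 22, microglia 1 listed 15 and microglia 2 listed 19. Their share of all sites in named genes was 0.418% (exact 95% binomial interval 0.255% to 0.644%) in astrocyte 1, 0.937% (0.588% to 1.42%) in astrocyte 2, 1.41% (0.790% to 2.31%) in microglia 1 and 0.502% (0.303% to 0.783%) in microglia 2. These intervals cover the counting of sites only. The share was highest in microglia 1, the library with the fewest named-gene sites. Box C/D bases numbered 11, 15, 6 and 9 in the 4 libraries in that order, and box H/ACA bases 2, 4, 4 and 2. Host transcript bases numbered 5, 1, 1 and 4, highest in the 2 libraries with most named-gene sites, which also had most astrocyte marker genes. As shares of named-gene sites these were 0.104%, 0.0426%, 0.0938% and 0.106%, with wide exact 95% intervals that overlap. In bulk libraries fewer cells of a type and less RNA per cell cannot be told apart.

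**Figure D2:**
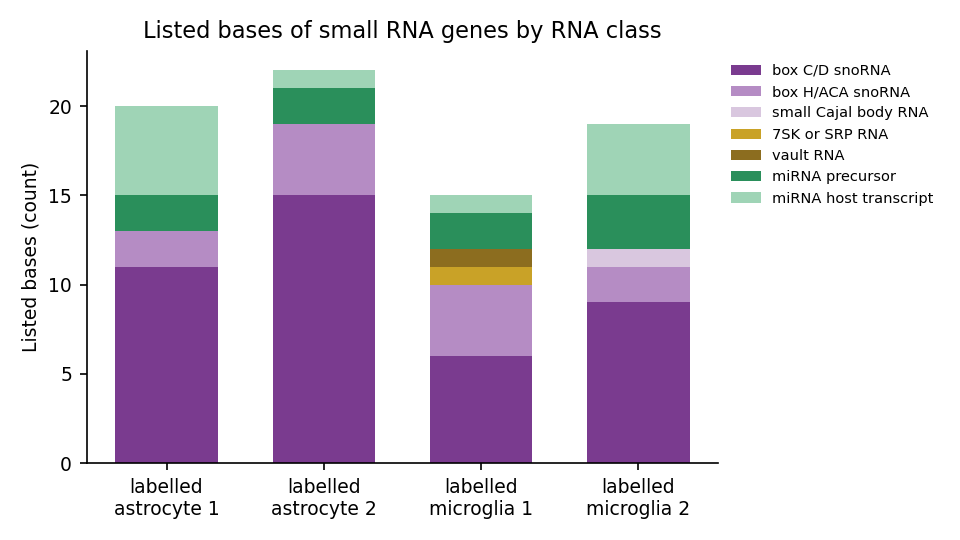
Number of listed bases of small RNA genes (vertical axis, count) in each library, stacked by RNA class. Box C/D snoRNAs make up 6 to 15 bases of each bar, and host transcripts 5 and 4 bases in astrocyte 1 and microglia 2 but 1 in each of the others.

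Among the box C/D snoRNAs, 3 had a base listed in every library. The AAC base of Snord38a stood at 23.6% and 25.5% in astrocyte 1 and 2, and 20.0% and 18.8% in microglia 1 and 2, or 22.0% ± 3.1 (SD, n = 4 libraries). Snord21, within the ribosomal protein gene Rpl5 (chromosome 5, position 108052504, plus strand, mm39, GAC), stood at 17.7%, 19.7%, 25.5% and 22.5% in the same order, or 21.4% ± 3.4 (SD, n = 4). Snord2, within Eif4a2, a gene for a helicase of translation initiation (chromosome 16, 22927734, plus strand, GAC), stood at 14.2%, 23.8%, 18.2% and 17.4%, or 18.4% ± 4.0 (SD, n = 4). The order of these 3 means was within the spread between libraries. The 4 libraries of each base lay within 9.6 points of each other.

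A further 5 box C/D bases were listed in 3 libraries. Snord82, within Ncl, the gene of nucleolin (chromosome 1, 86284016, minus strand, AAC), was the highest of them at 32.1% in astrocyte 1, 33.3% in astrocyte 2 and 27.6% in microglia 2, or 31.0% ± 3.0 (SD, n = 3). Every one of its values lay above every value of Snord38a, Snord21 and Snord2. Snord37, within the elongation factor gene Eef2 (chromosome 10, 81014848, plus strand, GAC), stood at 29.2%, 26.1% and 15.3% in these libraries, or 23.5% ± 7.3 (SD, n = 3), a wider spread with microglia 2 lowest.

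The other 3 were lower. Snord99, within the non-coding host Snhg12 (chromosome 4, 132038064, plus strand, GAC), stood at 23.3% in astrocyte 1, 16.4% in astrocyte 2 and 15.8% in microglia 2, with astrocyte 1 apart from the others. Snord66, within Eif4g1, the scaffold of translation initiation (chromosome 16, 20503055, plus strand, GAC), stood at 11.5%, 17.2% and 16.0%. Snord4a, within the ribosomal protein gene Rpl23a (chromosome 11, 78072557, minus strand, GAC), was the 1 of these 5 listed in microglia 1, and stood at 16.2% in astrocyte 2, 19.0% in microglia 1 and 13.6% in microglia 2. Their means were 18.5% ± 4.1 for Snord99, 14.9% ± 3.0 for Snord66 and 16.3% ± 2.7 for Snord4a (SD, n = 3 each), which do not separate by more than the spread.

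Of 4 box C/D bases listed in 2 libraries, 3 lay close to the lowest listed level. Snord49a (chromosome 11, 62494346) stood at 11.1% in astrocyte 2 and 10.0% in microglia 1. Snord85 stood at 10.4% in astrocyte 1 and 14.7% in astrocyte 2, and Snord94, within Ptcd3 (chromosome 6, 71859564), at 10.4% in astrocyte 1 and 15.3% in microglia 1. Snord70 was the exception. Its AAC base (chromosome 1, 59731126, plus strand), within Nop58, which encodes a core protein of the box C/D particle, stood at 71.4% in astrocyte 2 and 28.6% in microglia 2, a gap of 42.9 points. It was the largest gap among the 17 members listed more than once. Without coverage, this gap cannot be told apart from one that rests on few reads. The remaining 6 box C/D bases were listed once, at 11.5% (Snord95) to 21.4% (Snord42b).

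Of the 9 box H/ACA bases, 7 were listed in 1 library, and of the 18 box C/D bases, 6 were. This difference was not tested. Snora70, within the ribosomal protein gene Rpl10 on chromosome X (position 73316109, plus strand, GAC), stood at 12.04% in astrocyte 1, 13.1% in astrocyte 2 and 18.6% in microglia 2, or 14.6% ± 3.5 (SD, n = 3). It had a second GAC base 104 nucleotides downstream, listed only in astrocyte 2 at 11.3%. No other snoRNA had 2 listed bases. Snora30, within Srcap (chromosome 7, 127127171, plus strand, AAC), stood at 11.8% in astrocyte 1 and 10.8% in microglia 2. The bases listed once ranged from 11.3% to 57.1%, and the highest were Snora17, within the non-coding host Snhg7, at 57.1% in microglia 1, and Snora5c, within Tbrg4, at 42.9% in astrocyte 2. Snora73a, the U17 snoRNA that acts in ribosomal RNA cleavage, stood at 13.9% in microglia 1.

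Single bases were listed in 3 other small RNAs. Rn7sk, the RNA that holds the elongation factor P-TEFb inactive, had a GAC base at 15.5% in microglia 1 (chromosome 9, 78082744, minus strand), in soft-masked sequence. The mouse genome holds many copies of this RNA, and reads of near-identical copies may be split between them. Vaultrc5, the RNA of the vault particle, had an AAC base at 12.9% in microglia 1. Scarna13, within the non-coding host Snhg10, had a GAC base at 11.8% in microglia 2 (chromosome 12, 104997374, minus strand). None of these 3 values has a replicate. In the RefSeq table, 15 names of spliceosomal RNAs (Rnu), 2 of Y RNAs and 1 each of RNase MRP, RNase P and telomerase RNA fit the rule, and 0 of these had a listed base in any library. Of 94 box C/D names 18 had one (19.1%), and of 39 box H/ACA names 8 had one (20.5%). These shares lay near the 22.0% of all protein-coding names with a listed base. Of 1169 miRNA precursor names 3 had one (0.257%).

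At the miRNA loci 3 bases were listed in every library, all high. The Mir219a-2 base (chromosome 2, 29735683, minus strand, AAC) stood at 100% in astrocyte 1, astrocyte 2 and microglia 2 and at 83.3% in microglia 1. The miRNA it yields, miR-219a, is known for its role in the maturation of oligodendrocytes. The Mir6240 base (chromosome 5, 114990032, plus strand, AAC) stood at 90.2%, 95.1%, 93.5% and 95.5%, or 93.6% ± 2.4 (SD, n = 4). The Mir6240 hairpin resembles a stretch of large-subunit ribosomal RNA, so reads of both may not be told apart. The base of Mir124a-1hg, a host of the neuronal miRNA miR-124 (chromosome 14, 64829264, plus strand, GAC), stood at 97.3%, 100%, 96.3% and 96.0%, or 97.4% ± 1.8 (SD, n = 4). Neuron marker genes with a site numbered 1 of 6 in astrocyte 1 and 0 in the others.

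The other miRNA loci had lower levels and no repeat. Mir124-2hg had 2 GAC bases 17 nucleotides apart on chromosome 3, both in astrocyte 1, at 57.1% and 55.6%. Mir9-3hg, a host of miR-9, had a base at 60.0% in astrocyte 1 and another, 224 nucleotides away, at 48.0% in microglia 2. Mir100hg had a base at 80.0% in astrocyte 1 and another at 44.4% in microglia 2, and Mir99ahg had one at 44.4% in microglia 2. The precursor Mir12184, within Gpld1, stood at 42.9% in microglia 2. All 7 host transcript bases without a repeat came from astrocyte 1 or microglia 2, which listed 4790 and 3782 sites in named genes, against 2348 in astrocyte 2 and 1066 in microglia 1.

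**Figure D3:**
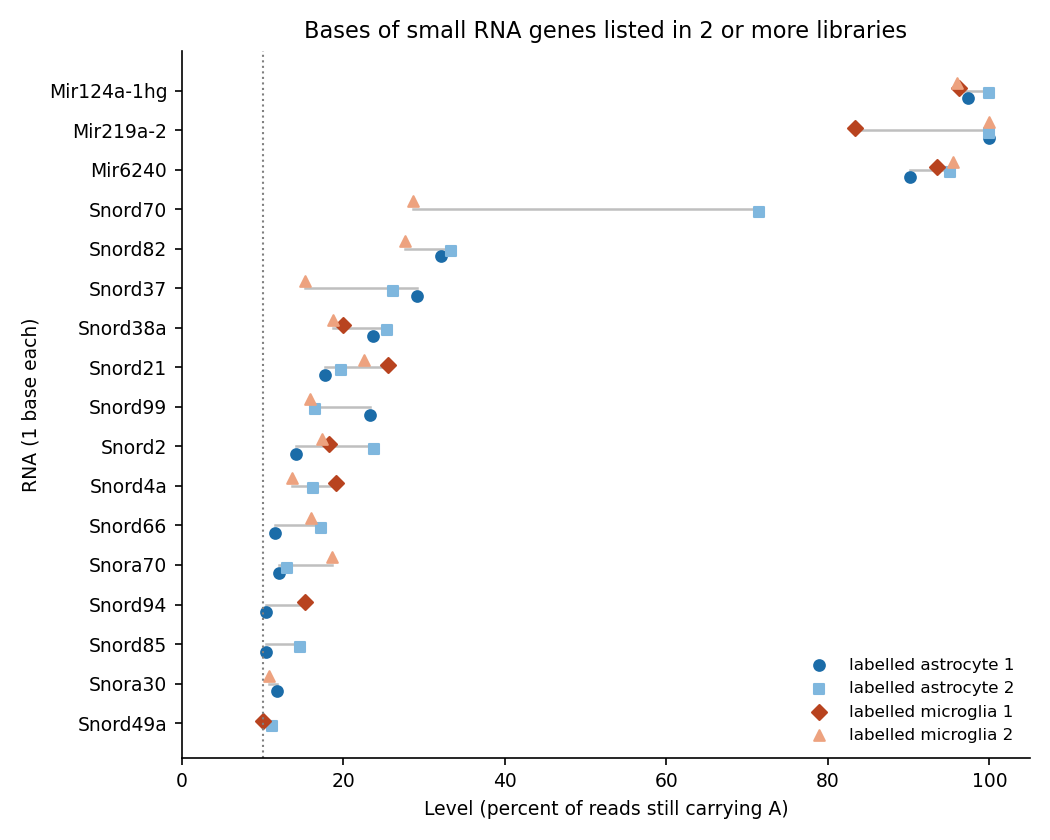
Level (horizontal axis, percent of reads still carrying A) of the 17 bases of small RNA genes listed in 2 or more libraries, 1 row per RNA in order of its mean, with 1 symbol per library, a grey line from the lowest to the highest and a dotted line at 10%. The 13 lowest rows lie between 10.0% and 33.3%, the 3 top rows lie above 80%, and Snord70 spans 28.6% to 71.4%.

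Of the 41 small RNA bases, 17 (41.5%, exact 95% interval 26.3% to 57.9%) were listed in 2 or more libraries, against 1013 of 10557 (9.60%, 9.04% to 10.2%) in other named genes. In the replicate 1 libraries alone 7 of 28 (25.0%) were shared, against 5.93% of other bases, and in the replicate 2 libraries alone 13 of 28 (46.4%), against 3.91%. The share was 12 of 18 for box C/D and 2 of 9 for box H/ACA. These are descriptions of the tables, since bases of 1 library share its depth and RNA, and the part of RNA abundance in them was not tested.

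Levels at shared bases moved little in absolute terms. No level under 10.0% was listed, which by itself narrows the range that a low base can show. Over the 17 shared bases the median range between the lowest and highest library was 5.75 points, and 14 of 17 stayed within 10 points. Over 1013 other shared bases the median range was 9.23 points and 52.7% stayed within 10. This difference in medians turned round without astrocyte 1 (5.64 against 4.76 points) and without microglia 2 (4.83 against 0.781 points), where many other bases stood at 100% in every library that listed them. Among bases with a mean level under 40%, which leaves out those at 100%, the medians were 5.75 points over 13 small RNA bases, all snoRNAs, and 8.75 points over 173 others, and they kept that order without each library in turn.

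Pair by pair, the same low bases gave a mixed picture of the median and a uniform one of the SD. For astrocyte 1 and 2 the median gap was 3.08 points over 9 snoRNA bases and 6.29 points over 23 others. For microglia 1 and 2 it was 2.09 points over 4 and 4.74 points over 20. The snoRNA median was the larger in 2 of the 6 pairs, astrocyte 1 with microglia 1 (4.42 against 4.12 points) and astrocyte 2 with microglia 2 (5.54 against 3.89 points). The SD of the gap was 2.11 to 6.82 points for snoRNAs over the 6 pairs and 7.05 to 13.2 points for the others, lower for snoRNAs in each pair. With Snord70 included, whose mean of 50% put it outside this set, the SD of astrocyte 2 with microglia 2 was 13.5 points. Under 40% the snoRNA SDs rest on 4 to 9 bases in a pair. The limit of 40% does not match levels. Of 50 snoRNA listings under it 34 lay under 20%, against 492 of 2373 in other named genes. The part of this in the SDs was not tested.

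The one comparison the labels give is astrocyte against microglia at the same base. Of 1100 bases listed in all 4 libraries, 354 could be tested with limma on log2 odds, and 6 of these were small RNA bases. None of the 6 passed an adjusted p of 0.05, and 0 of 354 bases did (0%). At an unadjusted p under 0.05 there were 16 of 354 bases and 0 of the 6 on this scale. On the untransformed level there were 17 of 391 bases and 1 of the 6, Snord38a (unadjusted p = 0.033, adjusted p = 0.755, limma). Snord38a was higher in the libraries labelled astrocyte by 0.44 log2 odds (SE 0.56, adjusted p = 0.729, limma), and Snord21 was lower by a difference of -0.45 (SE 0.57, adjusted p = 0.726, limma). Snord2 differed by 0.07 (SE 0.65, adjusted p = 0.955, limma) and Mir6240 by -0.40 (SE 0.71, adjusted p = 0.794, limma). Mir124a-1hg differed by 1.26 (SE 0.77) and Mir219a-2 by 2.15 (SE 1.68), each with a limma adjusted p of 0.679. Both rest on levels at or near 100%, and with levels held to within 0.001 of 0 and of 1, as fractions, they were 2.92 and 3.82. Mir124a-1hg was 0.53 without astrocyte 2 and 1.99 without astrocyte 1. Mir219a-2 could not be tested without microglia 1 or without microglia 2, since no spread was left. Leaving out astrocyte 1 or 2 gave 0.13 and -0.94 for Mir6240, and leaving out microglia 1 or 2 gave -0.68 and -0.13. The same steps gave 0.53 and -0.39, then 0.11 and 0.03, for Snord2. A p above the threshold does not show that the levels were alike.

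In 3 of the 6 (Snord21, Snord38a and Mir124a-1hg) the 2 libraries of each label did not overlap, where 17.5% of the 354 bases tested had such groups. In the replicate 1 libraries alone, astrocyte minus microglia was -7.77 points for Snord21, 3.64 points for Snord38a and -4.01 points for Snord2. In the replicate 2 libraries alone it was -2.80, 6.71 and 6.39 points, so Snord2 changed sign between the replicates. At the miRNA loci the replicate 1 differences were 1.001 points for Mir124a-1hg, 16.7 points for Mir219a-2 and -3.37 points for Mir6240, and the replicate 2 differences were 4, 0 and -0.46 points. With 2 libraries against 2, an exact two-sided permutation test cannot give a p below 0.333.

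Every listed base had GAC or AAC, and 30 of 41 small RNA bases were GAC (73.2%, exact 95% interval 57.1% to 85.8%), against 67.2% (66.3% to 68.1%) in other named genes. By library the shares were 70.0% against 67.6% in astrocyte 1, 72.7% against 65.0% in astrocyte 2, 73.3% against 56.6% in microglia 1 and 57.9% against 69.4% in microglia 2, so the order turned in microglia 2. For snoRNAs the count was 22 of 27 (81.5%, 61.9% to 93.7%) and at miRNA loci 6 of 11 (54.5%, 23.4% to 83.3%). The 5 snoRNA bases in AAC had a median level of 22.0%, over the mean of each base, and the 22 in GAC 14.7%. The 5 were those of Snord82 and Snord70, the box C/D RNAs with the highest means, Snord38a, Snord42b and Snora30, whose mean was 11.3%. The snoRNA base with the highest mean, Snora17 at 57.1%, and Snora5c at 42.9% were GAC. In the small RNA genes under other names, described below, the medians were 18.1% for AAC and 18.5% for GAC. In other named genes the medians were 66.7% for AAC and 63.2% for GAC. Soft-masked sequence held 2 of 41 small RNA bases (4.88%) and 4.73% of other bases.

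Small RNA genes under other names gave a comparison that the name rule did not choose. Genes that RefSeq types as snoRNA, snRNA or guide RNA, but which carry predicted or numbered names, had 74 bases in 65 genes. The median over 60 listings of predicted snoRNA genes was 17.8%, beside 17.2% for the named snoRNAs, and 52 of 60 lay under 40%. Predicted snRNA genes had a median of 23.1% over 47 listings. Soft-masked sequence held 29 of the 31 predicted snRNA bases (93.5%), against 2 of 39 predicted snoRNA bases. Reads of near-identical snRNA copies may be split between them. The low values of predicted genes were not universal. Gm23201, a predicted snoRNA within the host RNA Zfas1, stood at 100% in astrocyte 2 and microglia 1 and 85.0% in microglia 2, and the predicted snRNA Gm24405 stood at 81.1% in astrocyte 1, 94.8% in microglia 1 and 76.8% in microglia 2. Of 25 such bases listed in 2 or more libraries, 13 stayed within 10 points.

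LOC115490046, which RefSeq types as a snoRNA, had other levels than its neighbour Snord38a. Its GAC base 678 nucleotides from that of Snord38a stood at 29.9% and 49.1% in astrocyte 1 and 2, and 59.7% and 31.8% in microglia 1 and 2, or 42.6% ± 14.3 (SD, n = 4). It was highest in the 2 libraries with most microglia marker genes, whereas Snord38a stayed between 18.8% and 25.5% in all 4. The part of cell makeup in this was not tested. LOC115490046 had another GAC base, 659 nucleotides from that of Snord38a, listed in microglia 1 alone at 17.9%. Snord37 and its host Eef2 were both listed, with an Eef2 base 393 nucleotides from that of Snord37 at 22.2% in microglia 2. A base outside named genes 63 nucleotides from that of Snord99 stood at 100% in astrocyte 2, where Snord99 stood at 16.4%.

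Host genes had listed bases about as often as protein-coding genes at large. Of 26 snoRNAs, 25 lay within the span of another gene in the RefSeq table, with strand not matched. There were 25 such host genes in all, among them 7 ribosomal protein genes and 3 of the Snhg non-coding hosts. Snord91a lay within both Srr and Tsr1. Only 5 of these 25 had a listed base of their own, among them Eef2, Eif4g1, Rack1 and Srcap. Of all 21900 protein-coding names in the RefSeq table, 22.0% had a listed base. The host genes had 14 bases in all, with a median level of 77.8% over 17 listings. The lowest was 22.2%. Reads of a snoRNA and of its host's unspliced intron cannot be told apart in these tables.

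Proteins that make, bind or use these RNAs are read against the same 22.0%. Of 17 snoRNP proteins and assembly factors, 1 had sites, Shq1, a chaperone of dyskerin. The base at position 100641516 of chromosome 6 stood at 54.5% in astrocyte 1, 72.7% in astrocyte 2 and 44.2% in microglia 1. A base 3 positions away, at 100641519, stood at 100% in 3 libraries. Of 14 genes of the 7SK and signal recognition particles 5 had sites (Ccnt1, Ccnt2, Hexim1, Hexim2 and Mepce), of 16 genes of miRNA processing and action 5 had sites, and of 23 spliceosomal particle proteins 4 had. Of 16 genes of RNase P, RNase MRP, telomerase, Y and vault particles 1 had a site, Wrap53, which carries telomerase RNA to Cajal bodies, at 87.5% in microglia 2. The median levels were 74.2% for the 7SK and signal recognition list, 88.4% for the miRNA list and 44.4% for the spliceosomal list. Each was above the snoRNA median. Over all named genes the median was 66.7%, above that of the spliceosomal list. Of 26 snoRNA host genes listed by function 3 had sites, with a median of 18.5%, from Hspa8, Rack1 and Snhg8.

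Whether the low snoRNA levels are partial methylation or adenosines that the reaction did not reach cannot be told apart in these tables, which give levels with no coverage and no unmethylated control. The values at hand were the low median of 17.2% and the 12 of 14 shared snoRNA bases within 10 points. No level under 10.0% was listed, which by itself narrows the range that a low base can show. Snord70, Snora17 and Snora5c stood above 40% in 1 library each. Without coverage, these exceptions cannot be told apart from levels that rest on few reads. The pairing of each listed adenosine within its snoRNA was not determined, since no mm39 sequence was used here.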

How the data were processed

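Each of the 4 libraries had 1 deposited table of called sites with 7 columns. The level is a fraction from 0 to 1, deposited by the authors without coverage, and is printed here as a percent. GLORI-tools made the site calls, per the series' design text, and the submitters' processing notes list STAR and mm39. Calling thresholds were given in none of these. Libraries were stranded total RNA, per the labels' protocols.

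Members were found by gene name, and bases were matched by chromosome, position (the end column, 1-based) and strand. The members, lists and tests were chosen with earlier results of these data known. The planned test used read counts at a coverage of at least 20, but the files hold levels only. The set fallback was used instead: limma 3.58.1 on log2 odds, levels held to 0.01 to 0.99, across all bases listed in all 4 libraries, Benjamini-Hochberg threshold 0.05, without a replicate block. Bases that tie within each label have no spread and no test. The step was tested on simulated data. RNA types and containing genes came from a RefSeq table of GRCm38.p6, in which 5452 of 5526 names and all 37 members matched. Its coordinates served only to find the containing genes, without regard to strand. No position of a listed base was taken from it. Hairpins were folded with RNAfold 2.7.2. Nothing says that the 2 libraries of a label came from different animals, so the spread may be technical. Every gene with a base in 2 or more libraries, with 2 bases, or alone in its class was named; single others were named after their values were seen. Alternatives covered the scale, limits, sets and left-out libraries. Some items are not reported here.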

Additional observations from a re-analysis of the deposited data

How the results depend on the processing

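The limma comparison called 0 bases under every alternative run: other level limits, the untransformed level, named genes only, bases listed in at least 1 library of each label, and each library left out (0 to 0). Leaving out a library leaves 1 in an arm, which is then assumed to vary like the other. With the replicate block it also called 0 of 354 bases, with a smallest adjusted p of 0.892 against 0.457. The replicate numbers do not pair the libraries by label, and deviations of same-numbered libraries correlated at -0.0703 over 354 bases. Of 52 values of the 6 member differences under alternatives, 50 kept direction. The replicate block, named genes only and at least 1 library of each label leave each difference unchanged by construction. The 2 values that turned came with a library left out. Mir124a-1hg and Mir219a-2 were 2.92 and 3.82 log2 odds with levels held to within 0.001 of 0 and of 1. Without each library in turn, Mir124a-1hg ranged from 0.53 to 1.99, Mir6240 ranged from -0.94 to 0.13 log2 odds (0.13 without astrocyte 1) and Snord2 from -0.39 (without astrocyte 2) to 0.53. Requiring a level of 20% left 11, 11, 7 and 10 small RNA bases in astrocyte 1, astrocyte 2, microglia 1 and microglia 2. The median level fell without host transcripts to 14.2% from 23.5% in astrocyte 1 and to 18.6% from 22.5% in microglia 2, and without bases at 100% to 18.5% from 20.6% in astrocyte 2. Without all miRNA loci, an alternative chosen after seeing the data like those on means under 40% and single replicates, it was 13.3%, 17.2% and 16.7% in astrocyte 1, astrocyte 2 and microglia 2. The ratio of the members' median range to that of other bases was 0.623, and 0.570 to 6.18 without each library in turn. Over bases below 100% it was 0.433, and 0.391 to 0.541 without each library (0.391 without astrocyte 2, 0.393 without microglia 2). Bases shared by 2 or more libraries numbered 17, and 14 to 15 without each library, and 7 in the replicate 1 libraries alone. The share of GAC over unique member bases was 64.7% to 75.8% under the alternatives. Depth is unknown, so the precision of each level cannot be given.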
